A study of Mus musculus with 7 samples.

Results

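The 9 genes of dopamine signalling described here were followed through single-nucleus RNA sequencing (snRNA-seq) of the mouse posterolateral cortical amygdala (plCoA), an olfactory area of the cortical surface. They were the 5 dopamine receptor genes Drd1, Drd5, Drd2, Drd3 and Drd4 and 4 genes of the signalling chain below them, Gnal, Adcy5, Ppp1r1b and Rgs9. All were taken by gene symbol from the 32285 genes counted, and each of the 9 symbols named 1 gene.

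Dopamine acts through G protein-coupled receptors of 2 families. D1-like receptors (Drd1 and Drd5) raise cyclic AMP through a stimulatory G protein, whereas D2-like receptors (Drd2, Drd3 and Drd4) act through inhibitory G proteins. Gnal encodes Gαolf, the stimulatory alpha subunit of olfactory sensory neurons and of the striatum, and Adcy5 encodes the adenylyl cyclase that makes most of the cyclic AMP in striatal projection neurons. Ppp1r1b encodes DARPP-32, which inhibits protein phosphatase 1 once protein kinase A has phosphorylated it. Rgs9 encodes a regulator of G protein signalling that speeds the switching off of inhibitory G proteins, again mostly in the striatum.

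The nuclei came from male C57BL6J mice aged 8 weeks, untreated apart from single housing and a day of sensory deprivation before death. Tissue punched from the anterior (aplCoA) or posterior (pplCoA) domain was pooled over several mice into 3 replicates of each domain, and nuclei were sorted by their DNA stain. Replicate 1 of aplCoA was sequenced as 2 libraries, which were added together here, so that 7 libraries gave 6 replicates. A pool rather than a mouse is therefore the unit of every comparison, and the dissections can include cells of neighbouring areas.

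The libraries held 50812605 to 129624583 unique molecular identifiers (UMIs, counted RNA molecules). After filtering, 46434 nuclei with at least 1000 detected genes were kept, 4027 to 9711 per library, with medians of 5180 to 6749 UMIs per nucleus. Levels are given as CPM, the counts of a gene in 1000000 UMIs of all nuclei of a class in a replicate. Pairs of libraries shared 4 to 31 barcodes, at most 0.385% of the smaller library. Classes were named from marker lists, so their marker levels describe the naming and do not test it. Slc17a7 (the vesicular glutamate transporter VGluT1) stood at 212 CPM in glutamatergic and 10.5 CPM in GABAergic nuclei, and Gad2, which makes GABA, at 3.76 and 350 CPM. In every class, 5 to 7 of its 6 to 8 naming markers were at their highest there, but the summed VLMC markers (vascular leptomeningeal cells) stood at 2968 CPM in VLMCs and 4900 CPM in arachnoid barrier cells. The second library of aplCoA replicate 1 stood apart in its free RNA, described at the end, and results are also given without it.

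Receptor transcripts were scarce, and those of Drd1, Drd2 and Drd3 were nearly all in neurons. Drd1 gave 1295 UMIs in 1068 of the 46434 nuclei, Drd2 405 UMIs in 263 nuclei and Drd3 420 UMIs in 236 nuclei. Neurons held 97.1%, 96.3% and 97.1% of these UMIs, against 79.7% of the UMIs of all genes. Drd5 was seen 20 times (80% in neurons) and Drd4 11 times (72.7%) in the whole series, too few to compare between groups. The signalling genes were counted more often, with 36596 UMIs of Gnal, 19816 of Adcy5, 4537 of Rgs9 and 1312 of Ppp1r1b. Neurons held 94.8% of the Gnal UMIs, but their shares of Adcy5 (71.4%), Rgs9 (72.2%) and Ppp1r1b (76.8%) were below their share of all UMIs. UMIs of different genes are not compared further, because introns were counted and the genes differ in length.

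In the mm10 build (GRCm38), Drd1 (ENSMUSG00000021478) lies on the minus strand of chromosome 13 at chr13:54051183-54055705. Drd5 (ENSMUSG00000039358) lies on the plus strand at chr5:38319367-38322518, and 1531 bases of it overlap the antisense gene Gm26560. Drd2 (ENSMUSG00000032259) spans chr9:49340627-49408177 on the plus strand, Drd3 (ENSMUSG00000022705) chr16:43754026-43822932 on the plus strand and Drd4 (ENSMUSG00000025496) chr7:141292006-141296464 on the plus strand. The receptor genes differ in how much of them is exon. Exons make up 80.2% of the Drd1, 100% of the Drd5 and 75.8% of the Drd4 locus but 3.77% of Drd2 and 2.48% of Drd3, so most bases from which a Drd2 or Drd3 UMI could be counted are intronic. Adcy5 (ENSMUSG00000022840) spans chr16:35154877-35305738 on the plus strand, Ppp1r1b (ENSMUSG00000061718) chr11:98348404-98357796 on the plus strand and Rgs9 (ENSMUSG00000020599) chr11:109225355-109298129 on the minus strand. A gene on the opposite strand, 1700003D09Rik, overlaps 7079 bases of Ppp1r1b.

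Of these genes, 4 differed between domains, as described next, and their start regions are shown so that they can be compared. Each sequence is the 300 bases from 250 before to 50 after a start site that RefSeq lists (GRCm38.p6), written 5′ to 3′ on the strand of the gene, with matches to the GC box GGGCGG, searched on both strands, in capitals. The Drd1 window is chr13:54055609-54055908 (minus strand), that of Drd2 chr9:49340153-49340452 (plus), that of Drd3 chr16:43761971-43762270 (plus) and that of Rgs9 chr11:109298132-109298431 (minus). Drd1 has 2 listed starts, and the one nearer to the start of the locus given above is shown. The Drd3 window lies inside the locus given above, downstream of its annotated start.
Drd1: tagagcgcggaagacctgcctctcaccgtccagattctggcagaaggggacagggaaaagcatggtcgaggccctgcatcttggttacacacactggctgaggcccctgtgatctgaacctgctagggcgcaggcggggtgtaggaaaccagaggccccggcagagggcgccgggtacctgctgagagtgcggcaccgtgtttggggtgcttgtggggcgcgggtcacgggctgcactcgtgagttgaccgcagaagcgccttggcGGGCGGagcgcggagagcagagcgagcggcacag
Drd2: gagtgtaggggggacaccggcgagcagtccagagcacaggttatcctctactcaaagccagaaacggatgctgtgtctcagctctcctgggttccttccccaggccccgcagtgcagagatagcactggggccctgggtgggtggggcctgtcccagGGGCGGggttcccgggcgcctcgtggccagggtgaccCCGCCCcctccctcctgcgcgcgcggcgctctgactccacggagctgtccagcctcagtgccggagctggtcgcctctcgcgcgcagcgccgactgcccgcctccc
Drd3: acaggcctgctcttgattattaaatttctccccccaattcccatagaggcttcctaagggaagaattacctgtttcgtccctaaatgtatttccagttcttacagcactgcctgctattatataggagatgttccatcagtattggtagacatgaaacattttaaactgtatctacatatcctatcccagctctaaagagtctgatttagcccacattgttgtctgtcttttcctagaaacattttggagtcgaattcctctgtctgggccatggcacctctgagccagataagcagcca
Rgs9: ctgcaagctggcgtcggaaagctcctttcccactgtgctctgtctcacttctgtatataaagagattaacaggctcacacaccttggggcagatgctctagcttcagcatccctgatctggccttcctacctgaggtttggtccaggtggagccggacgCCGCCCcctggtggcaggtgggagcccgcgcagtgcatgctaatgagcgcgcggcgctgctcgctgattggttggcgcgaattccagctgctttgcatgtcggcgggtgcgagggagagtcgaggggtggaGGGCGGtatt
The windows were unlike in base content. G and C made up 65.7% of the Drd1, 70.3% of the Drd2 and 60.3% of the Rgs9 window, against 42% of that of Drd3 and a median of 52.7% over 32851 mouse promoter windows. The Drd1 window held 1 GC box, those of Drd2 and Rgs9 held 2 each and that of Drd3 held none, whereas 35.7% of all windows held at least 1. Neither an EBF motif (TCCC and GGGA 2 bases apart, in 0.904% of all windows), a MEIS motif (TGACAG, 19.2%), a FOX motif (TGTTTAC, 3.65%) nor a cyclic AMP response element (TGACGTCA, 1.79%) was found on either strand of the 4 windows. A match is a stretch of letters and not a shown binding site.

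Glutamatergic nuclei of the anterior domain carried more Drd1, Drd2, Drd3 and Rgs9 RNA than those of the posterior domain. Of the 9 genes, 7 had enough counts to be tested, and 4 of these 7 were higher in aplCoA and none lower, where 16.3% of all 18826 genes tested were called in either direction (edgeR quasi-likelihood test, adjusted p under 0.05). Drd2 and Drd3 passed the filter on low counts through their anterior replicates, since only 1 of 3 posterior replicates reached its limit, so the direction of the count is not evidence of its own. With no gene filter Drd1, Drd2, Drd3 and Rgs9 were called too, and Drd5 (2.77, adjusted p = 0.15) and Drd4 (0.44, adjusted p = 0.92) were not. The replicates held 6656, 1571 and 3539 glutamatergic nuclei in aplCoA and 3566, 2389 and 2251 in pplCoA. A sum over a class cannot tell fewer positive nuclei from less RNA in each.

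Drd1, the main D1-like receptor of the forebrain, stood at 6.23, 6.12 and 4.61 CPM in aplCoA replicates 1 to 3 and at 1.76, 1.55 and 1.35 CPM in pplCoA replicates 1 to 3. Every anterior replicate lay above every posterior one. The means were 5.65 ± 0.91 and 1.55 ± 0.21 CPM (SD, n = 3 each), a ratio of 3.64, and the log2 fold change was 1.76 (SE 0.18, edgeR adjusted p = 0.0022). Drd5, the second D1-like receptor, gave 8, 3 and 1 UMIs in aplCoA and 0, 1 and 0 in pplCoA and was not tested.

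Drd2, the D2-like receptor that is also the autoreceptor of dopamine neurons, stood at 1.82, 2.04 and 2.46 CPM in aplCoA and 0.574, 0.173 and 0.248 CPM in pplCoA. The groups again did not overlap, although the posterior values rest on 31, 6 and 7 UMIs. The means were 2.11 ± 0.33 and 0.332 ± 0.213 CPM (SD, n = 3 each) and the log2 fold change was 2.45 (SE 0.36, edgeR adjusted p = 0.0037). Drd3, the D2-like receptor of high dopamine affinity, stood at 2.22, 2.20 and 2.48 CPM in aplCoA and 0.537, 0.201 and 0.177 CPM in pplCoA. The anterior replicates were close together and all above the posterior ones. The means were 2.30 ± 0.16 and 0.305 ± 0.201 CPM (SD, n = 3 each) and the log2 fold change was 2.69 (SE 0.34, edgeR adjusted p = 0.0028). Drd4 gave 3 UMIs in all glutamatergic nuclei.

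Among the signalling genes, Rgs9 stood at 13.1, 9.80 and 11.3 CPM in aplCoA and 7.04, 4.05 and 5.49 CPM in pplCoA. Its groups did not overlap. The means were 11.4 ± 1.7 and 5.53 ± 1.49 CPM (SD, n = 3 each), a ratio of 2.06, and the log2 fold change was 0.96 (SE 0.18, edgeR adjusted p = 0.0084). Adcy5 stood at 48.2, 40.1 and 46.5 CPM against 46.0, 44.9 and 41.0 CPM (log2 fold change -0.05, SE 0.08, edgeR adjusted p = 0.73). Gnal stood at 109, 132 and 98.7 CPM against 100.2, 98.6 and 91.6 CPM (0.15, SE 0.11, adjusted p = 0.43). Ppp1r1b stood at 3.80, 4.08 and 3.37 CPM against 3.83, 3.31 and 2.45 CPM (0.13, SE 0.19, adjusted p = 0.70). The replicates of the domains overlapped for all 3 of these genes.

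**Figure D1:**
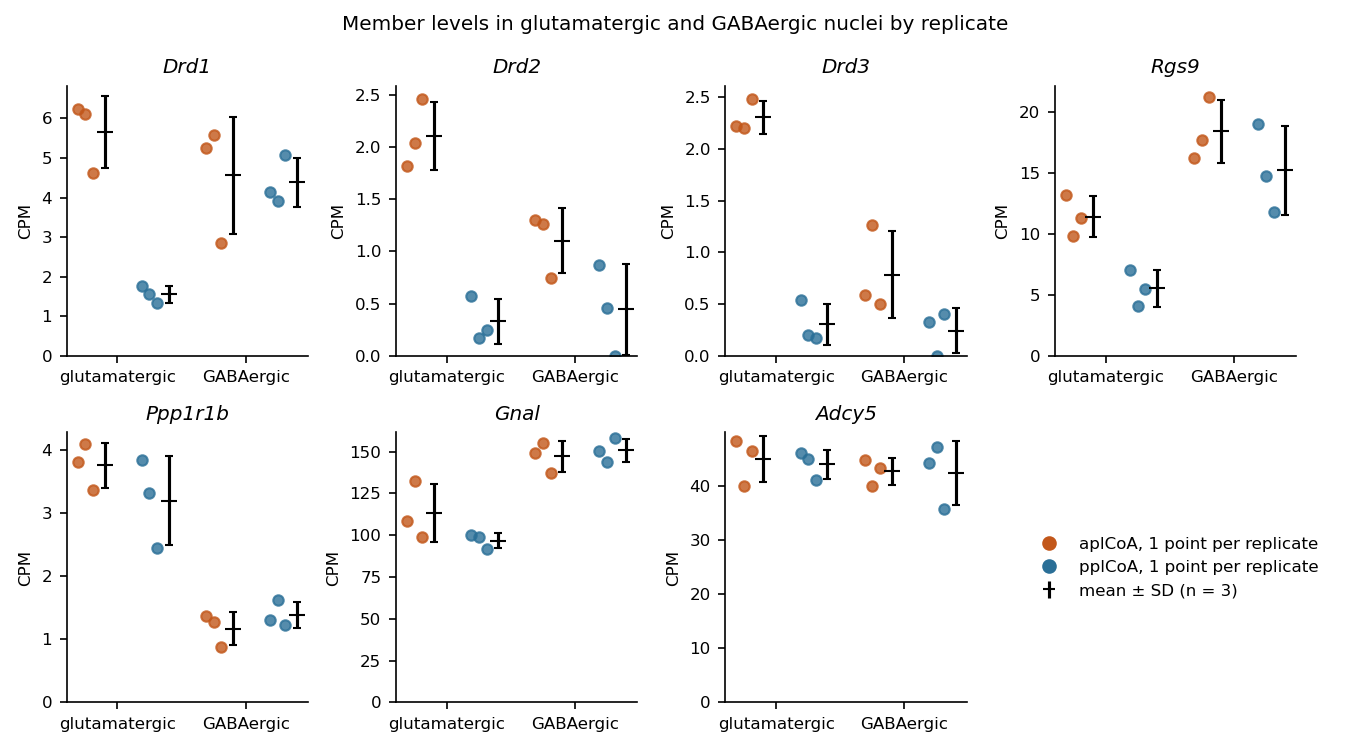
Level of each tested gene (CPM) in glutamatergic and GABAergic nuclei, with 1 point per replicate and bars for the mean ± SD (n = 3 per domain). In glutamatergic nuclei the aplCoA points of Drd1, Drd2, Drd3 and Rgs9 lie above all pplCoA points, and in GABAergic nuclei the Drd1 points of the domains overlap.

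The 4 changes were called under every alternative in which the gene could be tested, leaving out each replicate included. The log2 fold changes then ranged from 1.64 to 1.98 for Drd1, 2.15 to 3.23 for Drd2, 2.46 to 3.49 for Drd3 and 0.78 to 1.24 for Rgs9. With the first library alone for aplCoA replicate 1 they were 1.64, 2.49, 2.71 and 0.98. The difference was also seen in the share of nuclei with at least 1 UMI after each nucleus was thinned to 2000 UMIs, which left out 30 anterior and 43 posterior nuclei. That share was 1.14% in aplCoA and 0.321% in pplCoA for Drd1, 0.379% and 0.0676% for Drd2, 0.412% and 0.0675% for Drd3 and 2.52% and 1.18% for Rgs9 (means over 3 replicates, exact two-sided permutation p = 0.1 each, the smallest that 3 against 3 allows, and 0.225 adjusted). Unthinned, the shares were 6.04% and 1.85%, 1.59% and 0.279%, 1.53% and 0.312%, and 12.0% and 6.62%, at a median of 12234 UMIs per glutamatergic nucleus. Microglia, which should lack these receptors, gave 0.0325% for Drd1, 0.0246% for Drd2, no UMI for Drd3 and 0.192% for Rgs9 when thinned to 2000 UMIs, from a median of 3182 UMIs.

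No such difference was called in GABAergic nuclei. The 4 genes with enough counts (Drd1, Gnal, Adcy5 and Rgs9) gave no call in the edgeR test, none at an unadjusted p under 0.05 and none with the other tools, where 7.3% of all 14499 genes tested were called. Drd1 stood at 5.26, 5.57 and 2.86 CPM in the 1691, 354 and 942 GABAergic nuclei of aplCoA and at 4.15, 3.92 and 5.09 CPM in the 969, 561 and 700 of pplCoA. The anterior replicates thus held both the highest and the lowest value, and the log2 fold change was -0.01 (SE 0.28, edgeR adjusted p = 0.99). Rgs9 stood at 16.2, 17.7 and 21.3 CPM against 19.0, 14.8 and 11.8 CPM, groups that overlapped (0.17, SE 0.17, adjusted p = 0.65). Gnal (-0.10, SE 0.08, adjusted p = 0.56) and Adcy5 (-0.04, SE 0.11, adjusted p = 0.89) were not called either. Ppp1r1b (58 UMIs), Drd4 (5) and Drd5 (3) were too scarce to test. The D2-like receptors could not be tested in this class: Drd2 gave 41 UMIs, at 1.30, 1.27 and 0.746 CPM in aplCoA and 0.874, 0.461 and 0 CPM in pplCoA, and Drd3 gave 23, at 0.585, 1.27 and 0.497 CPM against 0.328, 0 and 0.407 CPM. The Drd2 levels overlapped, whereas every anterior Drd3 level lay above every posterior one. These Drd3 levels rest on 9, 5 and 4 UMIs in aplCoA and 3, 0 and 2 in pplCoA, and the share of all genes separated in this way was not computed. After thinning to 2000 UMIs, the share of GABAergic nuclei with a UMI was higher in all 3 anterior replicates for Drd2 (means 0.240% and 0.0607%), Drd3 (0.106% and 0.030%) and Rgs9 (3.60% and 2.66%), with an exact permutation p of 0.1 each (0.225 adjusted), but none of these reached that p unthinned.

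The domain change itself was compared between the classes by an interaction term, in which 1 of the 7 tested genes was called against 3.2% of all 18272. This was Drd1, whose domain change was lower in GABAergic than in glutamatergic nuclei by 1.78 on the log2 scale (-1.78, SE 0.27, edgeR adjusted p = 0.0042), with -1.94 to -1.61 over the alternatives. For Rgs9 the term was -0.82 (SE 0.21, adjusted p = 0.057). For Drd2 (-1.34, SE 0.71, adjusted p = 0.43) and Drd3 (-1.38, SE 0.89, adjusted p = 0.54) the standard errors were wide, so a difference between the classes was not detectable at these counts. The term for Gnal was -0.24 (adjusted p = 0.24), for Adcy5 -0.01 (adjusted p = 0.98) and for Ppp1r1b -0.35 (adjusted p = 0.78), and Drd4 and Drd5 were not tested.

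Where in the glutamatergic class the receptor transcripts lay was then examined. The glutamatergic clusters with more Slc17a7 than Slc17a6 (VGluT2) are called VGluT1 clusters. Several of them also held Slc17a6, such as those led by Neurod6 (73.5 CPM) and Ebf2 (104 CPM). Of the glutamatergic clusters, 6 held more Slc17a6 than Slc17a7, with 20.4% of glutamatergic nuclei and 15.6% of glutamatergic UMIs. These VGluT2 clusters held 90.3% of the glutamatergic Drd2 UMIs, 87.3% of the Drd3 UMIs, 50.4% of the Drd1 UMIs, 49.0% of the Rgs9 UMIs and 11 of the 13 Drd5 UMIs. Their shares of Adcy5 (18.9%), Gnal (15.8%) and Ppp1r1b (8.53%) were far smaller. These shares are pooled and describe mostly aplCoA, since VGluT2 nuclei made up 29.0% ± 5.5 of glutamatergic nuclei in aplCoA and 3.85% ± 4.92 in pplCoA (SD, n = 3 each). In pplCoA replicates 1 to 3, VGluT2 nuclei held 25 of 31, 2 of 6 and 2 of 7 Drd2 UMIs, 18 of 29, 3 of 7 and 0 of 5 Drd3 UMIs, and 34 of 95, 17 of 54 and 2 of 38 Drd1 UMIs. The split of the clusters by transporter was made after the data had been seen.

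Within VGluT2 nuclei none of the 6 tested genes was called, as for all 13509 genes (0% called, 1305 at an unadjusted p under 0.05, with DESeq2 calling 54). The posterior replicates held only 340, 27 and 20 such nuclei, against 2352, 402 and 926 anterior ones. Drd1 stood at 12.1, 12.5 and 14.0 CPM in aplCoA and 9.71, 71.1 and 11.9 CPM in pplCoA (log2 fold change -0.33, SE 0.46, edgeR adjusted p = 0.90). The value of 71.1 CPM rests on 17 UMIs in 27 nuclei, and the estimate was -1.86 (edgeR adjusted p = 0.015) without pplCoA replicate 1 and 0.35 without pplCoA replicate 2. Drd2 stood at 5.94, 9.65 and 10.6 CPM against 7.14, 8.36 and 11.9 CPM (0.12, SE 0.40, adjusted p = 0.98), with 2 UMIs in each of the last 2 replicates. Drd3 stood at 7.45, 7.91 and 10.9 CPM against 5.14, 12.5 and 0 CPM (0.64, SE 0.41, adjusted p = 0.68). The domains overlapped for both D2-like receptors. For Rgs9, the single gene of the 6 at an unadjusted p under 0.05, the levels were 28.9, 23.2 and 30.0 CPM against 37.7, 46.0 and 29.8 CPM, with 2 of the 3 posterior replicates above all anterior ones (-0.49, SE 0.19, adjusted p = 0.40). Adcy5 stood at 58.3, 47.5 and 48.7 CPM against 61.7, 66.9 and 65.5 CPM, with all posterior replicates above all anterior ones, but was not called (-0.31, SE 0.16, adjusted p = 0.58). Gnal was not called either (0.05, SE 0.17, adjusted p = 0.98). Ppp1r1b (72 UMIs in aplCoA and 9 in pplCoA) and Drd5 (11 and 0) were not tested, and Drd4 had no UMI. With so few posterior nuclei these fits do not show that the domains are alike.

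In VGluT1 nuclei 1 of the 5 tested genes was called, where 7.69% of all 18356 genes were. Drd1 stood at 3.95, 4.40 and 1.93 CPM in aplCoA and 1.21, 1.07 and 1.28 CPM in pplCoA, from 4304, 1169 and 2613 against 3226, 2362 and 2231 nuclei. Every anterior replicate lay above the posterior ones (log2 fold change 1.48, SE 0.30, edgeR adjusted p = 0.020). The call was lost without aplCoA replicate 1 (adjusted p = 0.090) or 2 (0.071) and without pplCoA replicate 2 (0.10) or 3 (0.067), with log2 fold changes of 1.28 to 1.77 over the 6 omissions. It was also lost without the Chrdl1-led cluster, which holds 18.7% of the glutamatergic Drd1 UMIs, and 2 smaller clusters with Etv1 or Sim1 among their leading genes (0.87, adjusted p = 0.087). Rgs9 stood at 7.10, 6.21 and 5.92 CPM against 4.91, 3.76 and 5.35 CPM (0.42, SE 0.16, adjusted p = 0.13), and was called without those 3 clusters (0.66, adjusted p = 0.038). Gnal (0.21, adjusted p = 0.35), Ppp1r1b (0.35, adjusted p = 0.29) and Adcy5 (-0.07, adjusted p = 0.68) were not called. Drd2 and Drd3 fell to 34 and 49 UMIs, too few to test, and at most 0.232 CPM of Drd2 and 0.673 CPM of Drd3 in any replicate.

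**Figure D2:**
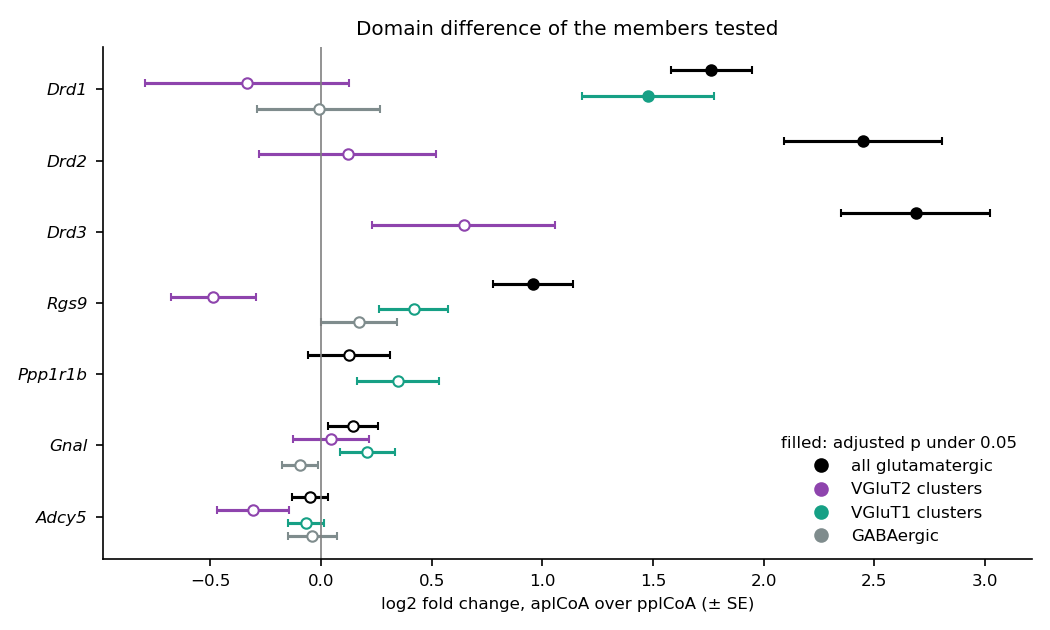
Log2 fold change of each tested gene (aplCoA over pplCoA, ± SE) in all glutamatergic, VGluT2, VGluT1 and GABAergic nuclei, with filled points for an edgeR adjusted p under 0.05. Drd1, Drd2, Drd3 and Rgs9 are filled for all glutamatergic nuclei, Drd1 for VGluT1 nuclei, and no gene is filled for VGluT2 or GABAergic nuclei.

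A single small VGluT2 cluster stood out for 3 receptors. It was led by Gpc5, Gm20713 and Prkcq and held 385 nuclei, 1.93% of the glutamatergic class. It held 243 UMIs of Drd2, 69.6% of the class total, at 41.9 CPM (95% counting interval 36.8 to 47.5) and in 30.4% of its nuclei. It also held 48.8% of the Drd3 UMIs, at 32.4 CPM (28.0 to 37.4), and 13.9% of the Drd1 UMIs, at 25.2 CPM (21.3 to 29.6). Rgs9 stood there at 36.9 CPM and was seen in 40.0% of nuclei, whereas Gnal at 129 CPM, Adcy5 at 36.7 CPM and Ppp1r1b at 3.45 CPM were within the range of other clusters. By replicate, Drd2 stood at 42.0, 43.8 and 44.4 CPM in aplCoA and 48.0, 11.6 and 8.39 CPM in pplCoA, where the replicate with fewest held 9 nuclei of this cluster. The anterior replicates and the best covered posterior one were close together for Drd2. Drd3 varied more, at 36.8, 13.9 and 44.4 CPM against 18.3, 17.3 and 0 CPM, and Drd1 stood at 23.0, 19.9 and 26.2 CPM against 20.6, 92.5 and 16.8 CPM. The 9 genes took no part in the clustering, but the clusters come from the same nuclei, so a cluster's level is a description without a test, and intervals cover counting error only.

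Drd1 was more widely spread than the D2-like receptors. After the Gpc5-led cluster it was highest in the VGluT2 cluster led by Ebf1, Gm12158 and Meis1 (12.3 CPM), in a VGluT1 cluster led by Prox1, Prrg1 and Cntnap3 (11.7 CPM, 14.7% of 703 nuclei) and in clusters led by Vwa5b1 (11.5 CPM) and Rxfp1 (10.6 CPM). In the Prox1-led cluster the levels were 15.4, 10.5 and 10.4 CPM in aplCoA and 8.74, 11.5 and 10.3 CPM in pplCoA, which overlapped. The VGluT1 cluster led by Chrdl1, Ccbe1 and Dach2 held 18.7% of the class's Drd1 UMIs at 6.54 CPM. No Drd1 UMI was found in the 1124 nuclei of the cluster led by Pde11a. Drd2 was at 0 in 7 of the 22 glutamatergic clusters of at least 100 nuclei, and its second highest level was 5.30 CPM in a VGluT1 cluster led by Neurod6 and Prox1. Drd3 was at 0 in 6 of the 22. After the Gpc5-led cluster, the cluster led by Rxfp1 and Foxp2 held the next largest part of its UMIs (25.7%, at 7.36 CPM), and 7 UMIs gave 10.2 CPM in a Cajal-Retzius-like cluster led by Ndnf, Trp73 and Ebf3.

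The signalling genes followed other orders over the same clusters. Rgs9 was highest in the Vwa5b1-led (37.3 CPM) and Gpc5-led (36.9 CPM) clusters and lowest in one led by Adgrd1 (1.05 CPM). Ppp1r1b peaked at 7.15 CPM in a cluster led by 6330411D24Rik, Gm2164 and Igfbp5. Gnal ran from 36.5 CPM in the Cajal-Retzius-like cluster to 163 CPM in that led by 6330411D24Rik, and Adcy5 from 30.1 CPM in the Chrdl1-led cluster to 83.3 CPM in the Cajal-Retzius-like one. The latter was thus lowest for Gnal and highest for Adcy5. Over the 40 neuronal clusters of at least 100 nuclei the levels of Gnal and Adcy5 had a Pearson r of -0.50, whereas Drd2 and Drd3 had 0.66, Drd1 and Drd2 0.33, Drd1 and Drd3 0.30, Drd2 and Rgs9 0.46 and Drd3 and Rgs9 0.34. These correlations are descriptions over clusters that share libraries.

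**Figure D3:**
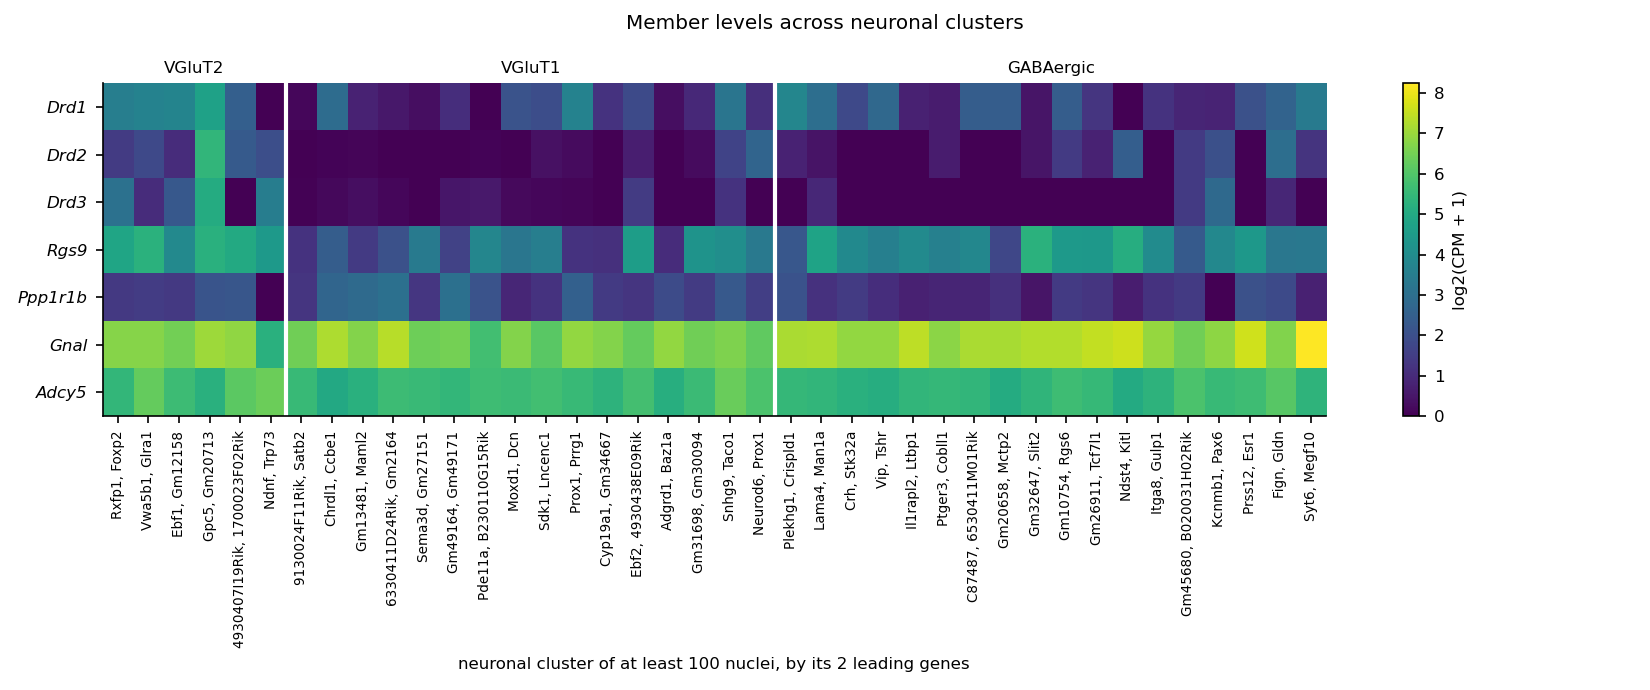
Level of the tested genes, as log2(CPM + 1), in the 40 neuronal clusters of at least 100 nuclei, grouped as 6 VGluT2, 16 VGluT1 and 18 GABAergic clusters and labelled by leading genes. Brighter cells are higher levels. The Gpc5-led VGluT2 cluster is the brightest for Drd2 and Drd3, while Gnal and Adcy5 are present in every cluster.

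In GABAergic nuclei Drd1 was highest in a cluster led by Plekhg1, Crispld1 and Gcnt2, with Lamp5 also among its leading genes, which held 522 nuclei and 24.8% of the GABAergic Drd1 UMIs at 12.6 CPM. Its replicates stood at 15.1, 22.9 and 8.75 CPM in aplCoA and 10.2, 7.85 and 12.8 CPM in pplCoA. The domains overlapped here as in the whole class. Drd1 followed at 9.49 CPM in a Syt6-led cluster, 6.84 CPM in one led by Lama4 and 5.92 CPM in one led by Vip. A group of 24 nuclei led by Adgrg6, below the size limit for clusters, held 15 Drd1 UMIs, at 53.9 CPM. Drd2 peaked at 6.94 CPM (8 UMIs) in a Fign-led cluster, and Drd3, at 0 in 14 of the 18 clusters, at 5.98 CPM (8 UMIs) in one led by Kcnmb1 and Pax6. Gnal ranged from 86.2 to 301 CPM, highest in the Syt6-led cluster, and Rgs9 reached 37.7 CPM in one led by Gm32647 and Slit2. A group of 51 nuclei led by Foxp2 and Meis2, with 4 markers of intercalated cells, held 2 UMIs of Drd1, 6 of Drd3 and none of Drd2, with Gnal at 226 CPM and Rgs9 at 45.7 CPM.

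The GABAergic and glutamatergic classes were compared directly over the 6 replicates. Of the 7 tested genes, 2 were higher and 3 lower in GABAergic nuclei, where 64.2% of all 17289 genes tested were called. Gnal was higher (log2 fold change 0.34, SE 0.06, edgeR adjusted p = 8.06e-04), at 149, 155 and 137 CPM in aplCoA and 150, 144 and 158 CPM in pplCoA. Every GABAergic value lay above every glutamatergic one. Rgs9 was also higher (0.84, SE 0.17, edgeR adjusted p = 0.0015). Ppp1r1b was lower (-1.65, SE 0.16, adjusted p = 8.48e-06), with GABAergic levels of 1.36, 1.27 and 0.870 CPM in aplCoA and 1.31, 1.61 and 1.22 CPM in pplCoA, all below the glutamatergic values. Drd3 (-1.67, SE 0.34, adjusted p = 0.0017) and Adcy5 (-0.24, SE 0.04, adjusted p = 9.79e-04) were lower as well. In CPM, each was lower in 5 of 6 replicates. For Drd3 the gap was wider in aplCoA, and pplCoA replicate 3 was reversed (0.177 CPM in glutamatergic, 0.407 CPM in GABAergic nuclei). Adcy5 means lay close, at 44.5 ± 3.2 CPM in glutamatergic and 42.6 ± 4.1 CPM in GABAergic nuclei (SD, n = 6). The fits use TMM scaling, which CPM do not. Drd3 could be tested under 11 alternatives, against 18 for Adcy5. Without the removal of doublets the Drd3 call was lost (-0.51, edgeR adjusted p = 0.32). Drd1 was not called (0.20, adjusted p = 0.60), but its order turned with the domain. It was lower in GABAergic nuclei in every aplCoA replicate and higher in every pplCoA replicate. Drd2 was not called (-0.74, SE 0.34, adjusted p = 0.079) and stood at 0.34 (adjusted p = 0.39) without the removal of doublets, the opposite direction, but it was called lower without pplCoA replicate 1 (-0.98, adjusted p = 0.037) and without 3 clusters that hold markers of neighbouring areas (-1.0, adjusted p = 0.030). The share of GABAergic nuclei with a Ppp1r1b UMI, 0.336% after thinning to 2000 UMIs, was below that of microglia (0.536%) and is read as background. That of glutamatergic nuclei was 0.644%, within the range of the microglia replicates (0.216% to 0.813%).

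Levels were ranked over the 9 classes with at least 10 nuclei in every replicate, which leaves out 260 macrophages, 36 mural and 14 endothelial nuclei. Outside neurons the signalling genes were found in different classes. Adcy5 was highest in vascular leptomeningeal cells (VLMCs), fibroblast-like cells of the meninges, at 469, 473 and 462 CPM in aplCoA and 451, 608 and 634 CPM in pplCoA (516 ± 82, SD, n = 6). Of the ranked classes, arachnoid barrier cells (ABCs) followed at 132 ± 30 CPM and mature oligodendrocytes (MOLs) at 87.7 ± 16.4 CPM, both above the 44.5 ± 3.2 CPM of glutamatergic and 42.6 ± 4.1 CPM of GABAergic nuclei. After thinning to 2000 UMIs, 54.9% of VLMCs had an Adcy5 UMI, against 8.64% of glutamatergic nuclei and 0.642% of microglia. Rgs9 was highest in oligodendrocyte precursors (OPCs), at 46.1, 43.9 and 39.6 CPM in aplCoA and 50.7, 52.2 and 52.8 CPM in pplCoA. GABAergic nuclei (16.8 ± 3.3 CPM), astrocytes (11.7 ± 3.7 CPM) and glutamatergic nuclei (8.47 ± 3.52 CPM) followed for Rgs9. These ranks hold for each gene alone and do not compare genes.

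Gnal was highest in GABAergic (149 ± 8 CPM) and glutamatergic nuclei (105 ± 14 CPM), then in OPCs (85.9 ± 9.9 CPM) and newly formed oligodendrocytes (NFOLs, 17.5 ± 5.7 CPM), with the other ranked classes between 7.14 and 9.10 CPM (SD, n = 6). Ppp1r1b was highest in astrocytes, at 6.71, 8.56 and 6.66 CPM in aplCoA and 5.71, 4.70 and 3.44 CPM in pplCoA, followed by glutamatergic nuclei (3.47 ± 0.58 CPM). After thinning to 2000 UMIs, 1.17% of astrocytes had a Ppp1r1b UMI, above the mean share in microglia (0.536%). The astrocyte replicates (0.674% to 1.60%) overlapped those of microglia (0.216% to 0.813%). In free RNA, described below, Ppp1r1b stood at 8.95 to 54.4 CPM over the libraries, above every astrocyte replicate. The part of free RNA in the astrocyte level was not tested. Drd1 stood at 4.47 ± 1.02 CPM in GABAergic and 3.60 ± 2.32 CPM in glutamatergic nuclei and at no more than 0.98 CPM in the other ranked classes, the value of MOLs, with 2 UMIs in all microglia. The neuronal order holds only for means over both domains, since glutamatergic Drd1 was higher in every aplCoA replicate and lower in every pplCoA one. Drd2 stood at 1.22 ± 1.00 CPM in glutamatergic and 0.77 ± 0.50 CPM in GABAergic nuclei, and Drd3 at 1.30 ± 1.11 and 0.51 ± 0.42 CPM. No Drd3 UMI was found in microglia, where a count of 0 allows up to 0.300 CPM. Neighbours in these orders were compared by 72 exact sign-flip permutation tests over the 6 replicates, in which p cannot go below 0.03125. No adjusted p was below 0.20, but with that limit a step could pass only if most steps reached it. Several steps compared classes that both stood at 0 CPM, so these tests cannot tell which steps differ.

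**Figure D4:**
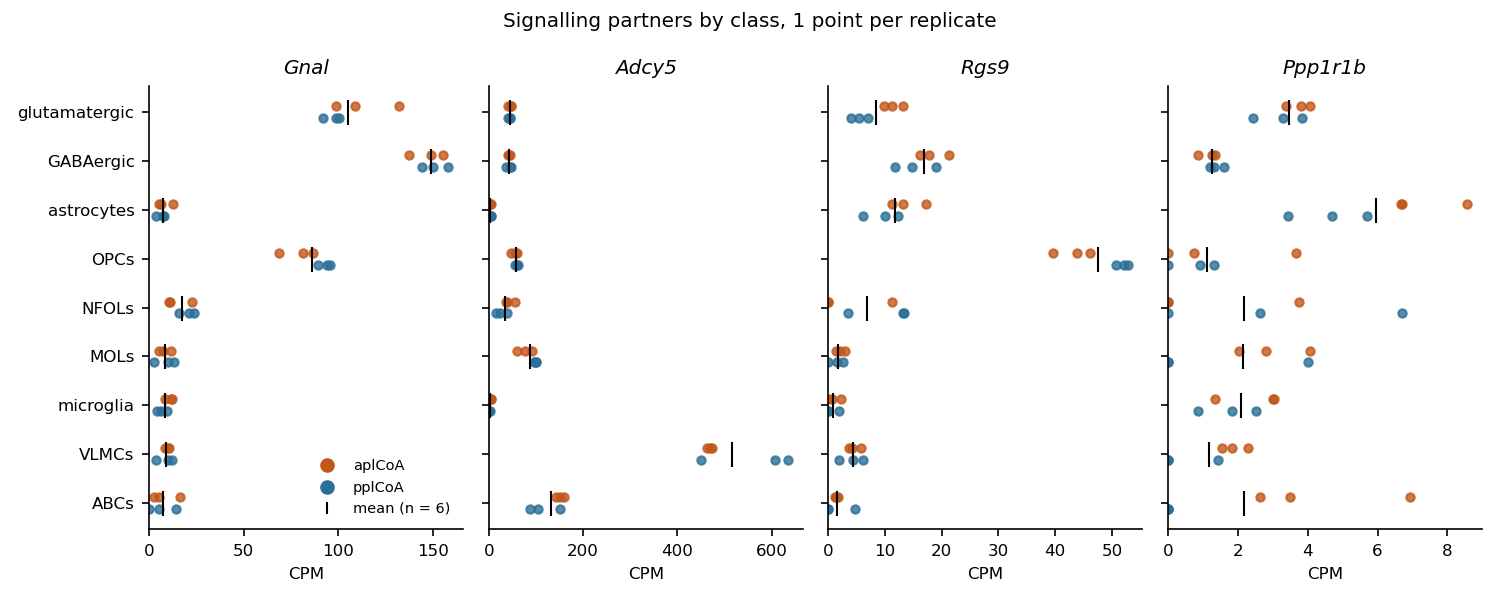
Level (CPM) of Gnal, Adcy5, Rgs9 and Ppp1r1b in the 9 cell classes, with 1 point per replicate (3 aplCoA, 3 pplCoA) and a bar at the mean (n = 6). Adcy5 is highest in VLMCs (451 to 634 CPM), Rgs9 in OPCs, Ppp1r1b in astrocytes and Gnal in both neuronal classes.

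No tested gene of the set was called between domains in a non-neuronal class. In astrocytes 4 were tested (0.43% of all genes called), in OPCs 3 (4.33%), in MOLs 1 (1.49%), in microglia 1 (0%, with 392 of 9800 genes at an unadjusted p under 0.05 and 5 called by the likelihood ratio test) and in VLMCs 2 (0.0192%). Both values at an unadjusted p under 0.05 were in OPCs. They were Gnal (log2 fold change -0.29, edgeR adjusted p = 0.18) and Rgs9 (-0.32, adjusted p = 0.21). Every posterior replicate lay above every anterior one for both, with Gnal at 86.5, 81.2 and 68.7 CPM in aplCoA and 89.2, 95.6 and 94.0 CPM in pplCoA. For Rgs9 this is opposite to its direction in glutamatergic nuclei. Adcy5 was not called in VLMCs (-0.27, adjusted p = 0.78), MOLs (-0.39, adjusted p = 0.47), OPCs (-0.19, adjusted p = 0.52) or astrocytes (-0.14, adjusted p = 0.92). Ppp1r1b (0.52, adjusted p = 0.46) and Rgs9 (0.45, adjusted p = 0.49) in astrocytes and Gnal in astrocytes (0.28, adjusted p = 0.80), microglia (0.72, adjusted p = 0.98) and VLMCs (0.13, adjusted p = 0.98) were not called either. The 5 receptors were too scarce to test in these classes, with at most 21 UMIs (Drd1 in astrocytes).

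Whether the signalling genes were seen in the nuclei with a Drd1 UMI was asked after thinning each nucleus to 5000 UMIs. In glutamatergic nuclei with Drd1, Rgs9 was found in 8.58 ± 3.58% and in those without in 4.23 ± 1.77% (SD, n = 6), and Ppp1r1b in 3.28 ± 1.25% and 1.63 ± 0.30%. Both were higher in 6 of 6 replicates (exact sign-flip permutation p = 0.03125, the smallest 6 pairs allow, and 0.20 adjusted over 16 pairs). The replicates held 14.8 to 194.4 glutamatergic nuclei with Drd1 on average over the draws, so shares in the smallest rest on very few nuclei. At 2000 UMIs per nucleus Rgs9 was higher in 5 of 6 replicates (3.72% and 1.83%, exact p = 0.0625) and Ppp1r1b in 4 of 6 (0.934% and 0.643%, exact p = 0.53), so neither gene was higher in every replicate at that depth. Drd3 was found in 1.89% of Drd1-positive and 0.478% of Drd1-negative nuclei, higher in 5 of 6 replicates (exact p = 0.0625). Gnal (39.8% and 37.9%) and Adcy5 (20.1% and 19.6%) were nearly alike in both. A replicate held 8.4 to 41.15 GABAergic nuclei with Drd1 on average over the draws. No Drd2 or Drd3 UMI was seen in them, against 0.370% and 0.182% of GABAergic nuclei without Drd1. At such shares so few nuclei could hold none, so the 0 shows no difference. Rgs9 was found in 5.65% of GABAergic nuclei with Drd1 and 7.78% of those without. Glutamatergic nuclei with Drd2 were too few in some replicates to test (2.05 to 52.75). Of them 9.82 ± 8.18% had Drd3, against 0.424% of those without, higher in 4 of 6 replicates. Rgs9 was seen in 23.1 ± 12.8% against 4.24%, and Gnal in 52.2 ± 12.6% against 37.9%, both higher in 6 of 6 (SD, n = 6).

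Genes whose level over the 40 clusters was most like each member were sought among 12731 genes with at least 10 CPM in some cluster. Nearest to Drd1 were E130119H09Rik (Pearson r 0.84), which lies 135434 bases from it on the same strand, Mast4 (0.60) and Meis1 (0.59). Nearest to Drd2 were Drd3 (0.66), Zer1 (0.64) and Pappa2 (0.64), and nearest to Drd3 were Nxph4 (0.85), Barhl2 (0.83) and Gpr149 (0.83). Rgs9 was most like Tmem91 (0.81), Ano5 (0.80) and Gas2 (0.74), Adcy5 like Acvr1b (0.73), Dcdc2a (0.71) and Por (0.68), and Gnal like Sirt6 (0.71), Snx24 (0.71) and Mppe1 (0.69). Mppe1 overlaps Gnal by 1750 bases on the opposite strand, and the cause of the likeness was not tested. Drd4, Drd5 and Ppp1r1b stayed below 10 CPM in every cluster and were left out.

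Other genes of cyclic AMP and G protein signalling moved in both directions. Of 62 listed (G protein subunits, adenylyl cyclases, phosphodiesterases, kinases, phosphatases and RGS proteins), 10 were higher and 12 lower in anterior glutamatergic nuclei, 35.5% of the list against 16.3% of all genes, with a median log2 fold change of 0.0031 against 0.0063 over all genes. Those with the largest changes were Rasgrp2, a Rap activator (1.23, edgeR adjusted p = 0.0081), and Gnas, the common stimulatory alpha subunit (0.63), which rose, and the cyclases Adcy1 (-0.94), Adcy8 (-0.65) and Adcy9 (-0.62), which fell. Adcy1 stood at a mean of 44.4 CPM in aplCoA and 80.6 CPM in pplCoA, and Gnas at 228 and 139 CPM. In GABAergic nuclei 1 of 61 passed (1.64%, against 7.3% of all genes), Caly, a partner of D1-like receptors (0.44, edgeR adjusted p = 0.040). Between the classes 22 were higher and 32 lower in GABAergic nuclei (87.1%, against 64.2% of all genes), led by Pde1c (3.50) and Rgs14 (-3.16). The interaction called 4 of the 62 upward and 5 downward (14.5%, against 3.2% of all genes), with Rasgrp2 at -1.08 and Adcy1 at 0.89.

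Of 11 genes of dopamine synthesis, transport and breakdown, 8 were tested in glutamatergic nuclei and 3 passed, all lower in aplCoA (37.5%, against 16.3% of all genes). They were the monoamine transporter genes Slc29a4 (-0.76) and Slc18a2 (-0.51) and the aldehyde dehydrogenase gene Aldh1a1 (-0.67). Slc18a2 also fell in anterior GABAergic nuclei (-0.68, edgeR adjusted p = 0.014), the single call among 3 tested there (33.3%, against 7.3% of all genes), and in OPCs (-0.90). Of 21 markers of striatal and intercalated neurons, 17 were tested in glutamatergic nuclei, with 4 higher in aplCoA (Ebf1 at 3.22, Foxp2 at 3.08, Penk at 1.97 and Meis2 at 0.79) and 3 lower, among them Oprm1, the mu opioid receptor gene (-0.67), or 41.2% of those tested. In GABAergic nuclei 1 of 14 passed (7.14%), Meis2 (1.58, edgeR adjusted p = 0.023). Of 8 central amygdala markers, 2 were higher in anterior glutamatergic nuclei (25%), Nts (1.76) and Cartpt (1.74), and 1 of 5 in GABAergic nuclei (20%), Cartpt (2.20, edgeR adjusted p = 0.0083). The part of neighbouring areas in the receptor values was not tested, beyond leaving out 3 glutamatergic clusters. These held Fign, Etv1 or Sim1, markers that the study places in neighbouring areas, among their 10 leading genes, and were led by Chrdl1 (1867 nuclei), Gm31698 (441 nuclei) and Sim1 (23 nuclei). The first of them is the VGluT1 cluster with 18.7% of the glutamatergic Drd1 UMIs described above. Without them the calls over all glutamatergic nuclei did not change, with Drd1 at 1.68 and Rgs9 at 1.24, whereas in VGluT1 nuclei alone the Drd1 call was lost and Rgs9 was called, as given above. None of the 3 clusters was among the VGluT2 clusters.

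Free RNA, measured in barcodes with fewer than 100 UMIs, moved partly with the domain. For Drd1 it stood at 5.21, 20.4, 13.3 and 7.65 CPM in the 4 aplCoA libraries and at 2.98, 3.82 and 3.25 CPM in the 3 pplCoA libraries. The anterior libraries were all higher, as in nuclei. For Drd2 it stood at 1.74, 35.8, 2.58 and 1.87 CPM against 1.36, 0.50 and 0.14 CPM, and for Drd3 at 2.32, 2.27, 0.55 and 1.25 CPM against 2.17, 0.17 and 0.14 CPM. The second library of aplCoA replicate 1 exceeded the others for 6 of the 7 genes, with Rgs9 at 137 CPM against 8.65 to 16.4 CPM elsewhere and Adcy5 at 143 against 44.1 to 65.9 CPM. In that library 16 of the 21 striatal and intercalated markers were also highest, and their summed level was 3098 CPM, against 1099 to 1506 CPM in the other libraries. In glutamatergic nuclei Drd1 was also higher in that library (9.21 CPM) than in the first library of the same replicate (4.88 CPM), as was Ppp1r1b (4.26 and 3.59 CPM). Drd2 (1.61 and 1.91 CPM), Drd3 (2.07 and 2.29 CPM), Rgs9 (12.5 and 13.4 CPM), Gnal (100.1 and 112 CPM) and Adcy5 (43.3 and 50.5 CPM) were lower in it. The part of free RNA in the domain differences was not tested, beyond the values with the first library alone.

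**Figure D5:**
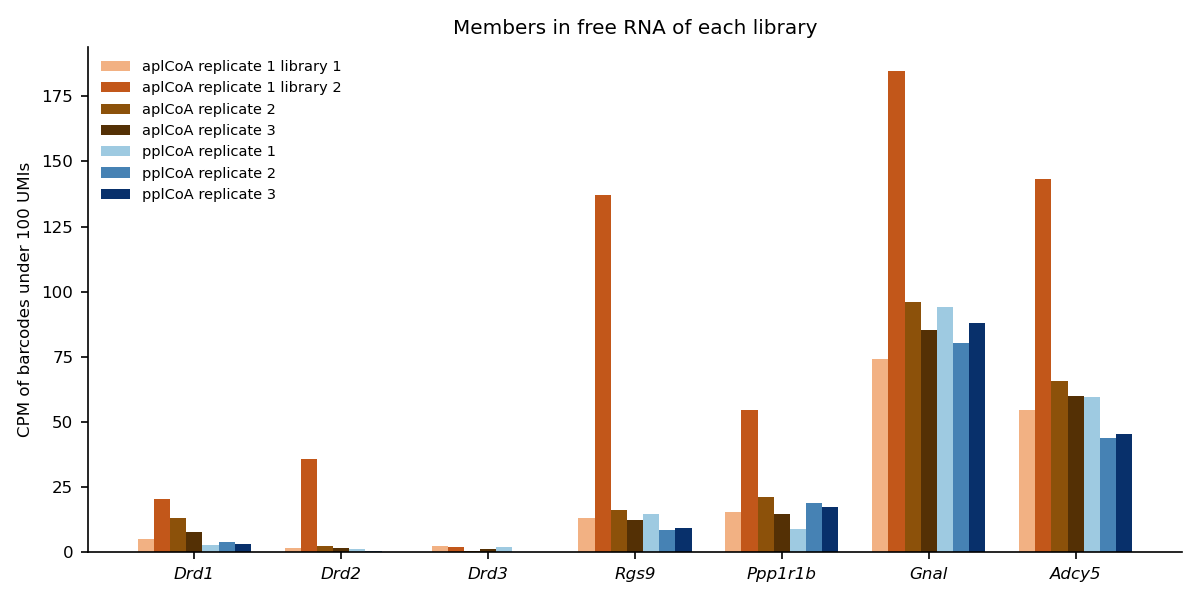
Level (CPM) of 7 members in barcodes with fewer than 100 UMIs, with 1 bar per library (4 aplCoA, 3 pplCoA). The second library of aplCoA replicate 1 has the tallest bar for every gene but Drd3.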

How the data were processed

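The authors dissected both plCoA domains, sorted nuclei, made 10x 3' v3.1 libraries and, per the labels, processed them with Cell Ranger 5.0.0 against mm10. The deposited matrices hold unfiltered UMI counts per gene and barcode, introns included, with no normalization. Barcodes with at least 1000 genes were kept, without those above 5 median absolute deviations of UMIs or 5 interquartile ranges of mitochondrial or ribosomal share, and the 4126 barcodes with the highest Scrublet scores were removed as doublets (1% expected per 1000 barcodes). Nuclei were clustered (scanpy 1.11.5, Leiden, resolution 1, 5000 variable genes, the 9 genes left out) and classes named from marker lists. UMIs were summed per class and replicate and compared with edgeR 4.0.16 (quasi-likelihood test, TMM, filterByExpr, Benjamini-Hochberg over all genes tested, called at an adjusted p under 0.05). DESeq2 1.42.0 was an alternative. Sums of RNA molecules counted with UMIs carry counting error, which is larger for the rarer receptors, so depth limits Drd2, Drd3, Drd4 and Drd5.

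The authors tested domains with edgeR's likelihood ratio test on genes seen in 10% of nuclei. That filter, which drops the receptors, and that test were tried as alternatives, as were other size factors, no gene filter, no doublet removal, a floor of 1500 genes, a split of neurons by marker UMIs, each library of aplCoA replicate 1 alone, leaving out each replicate, leaving out 3 glutamatergic clusters with Etv1, Sim1 or Fign among their 10 leading genes and the replicate number as a block. Shares of nuclei were taken as means of 20 draws after thinning to 2000 or 5000 UMIs. The members and all gene lists (62 pathway genes, 11 of dopamine handling, 21 striatal and intercalated markers and 8 central amygdala markers) were chosen with earlier results of these data known. All 9 members were looked up in every comparison. From each list, up to 5 called genes with the largest change could be named. The most like genes are the 3 with the highest Pearson r of log2(CPM + 1) over clusters of at least 100 nuclei, among genes that reach 10 CPM. The edgeR steps were tested on simulated counts with a single dispersion and 200 genes changed 2-fold. These were drawn from genes with more than 20 expected UMIs in the smallest sum, so the rates do not cover rarer genes. The quasi-likelihood test recovered 44% of the changed genes between domains in glutamatergic and 38.5% in GABAergic nuclei. It recovered 90.5% between the classes and 2% in the interaction. A gene that was not called between domains or in the interaction can therefore still have changed. Gene positions come from the GENCODE annotation and promoter windows from RefSeq, both on GRCm38.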

Additional observations from a re-analysis of the deposited data

Results flagged for a closer look

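The domain change of Drd1 differed between neuron classes by -1.78 on the log2 scale (GABAergic minus glutamatergic nuclei, edgeR interaction term). In barcodes with fewer than 100 UMIs, the second library of aplCoA replicate 1 stood far from the other 3 aplCoA libraries for Drd2 (35.8 CPM), Rgs9 (137 CPM), Adcy5 (143 CPM) and Ppp1r1b (54.4 CPM). In GABAergic nuclei, Drd4 stood at 0.249 CPM in aplCoA replicate 3, from 2 UMIs, with the other aplCoA libraries at 0. Dixon's test was run on 27 sets of 4 libraries, and chance flags about 1 in 20.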

How the results depend on the processing

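Of 648 values of single members under the alternatives, 604 kept their direction and their side of the threshold, 30 changed sign (none of these was called beforehand), 8 became called and 6 lost their call. The calls of Drd1, Drd2, Drd3 and Rgs9 over all glutamatergic nuclei were kept wherever the gene was tested. When only genes seen in 10% of nuclei of either domain were tested, 3 members remained. Of these, 1 was called between domains in glutamatergic nuclei (1999 of all genes) and 3 between the classes (7313 of all genes). In the interaction 0 were called, and Drd1 was no longer tested there. Shares of all genes tested are not given for this filter and for most settings below, so these member counts are not weighed against them. Rgs9, the member called in glutamatergic nuclei, passed this filter through aplCoA alone, so that call is not evidence of its own. The interaction called 2 members, Rgs9 joining Drd1, with the likelihood ratio test (Rgs9 -0.80), with no gene filter (-0.81), with neurons split by marker UMIs (-0.86) and without the 3 clusters with Etv1, Sim1 or Fign among their 10 leading genes (-1.09), and 1086, 1332 and 932 of all genes in the first, second and last of these. With the first library of aplCoA replicate 1 alone, 325 of all genes were called in GABAergic and 772 in VGluT1 nuclei. The likelihood ratio test called 346 of all genes in VGluT2 and 2341 in VGluT1 nuclei, and DESeq2 called 54 in VGluT2 nuclei. After thinning, 3 members reached the smallest p in GABAergic nuclei at 2000 UMIs, 1 at 5000 UMIs and 0 unthinned, but the share of all genes that would do so was not computed. The causes of these changes were not tested.

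Leaving out a replicate gave 1189 (without pplCoA replicate 2) to 4127 (without pplCoA replicate 1) genes called in glutamatergic nuclei, 429 to 1127 in GABAergic nuclei, 195 to 1304 in the interaction, 0 to 619 in VGluT2 nuclei and 10 to 2551 in VGluT1 nuclei, the extremes again without pplCoA replicate 2 and replicate 1 except for the 0 in VGluT2 nuclei. It gave 0 to 1 members called in VGluT2 and in VGluT1 nuclei. Uncalled members that changed sign then ranged from -0.10 to 0.011 (Adcy5) and -0.023 to 0.28 (Ppp1r1b) in glutamatergic nuclei, -0.22 to 0.23 (Drd1) and -0.14 to 0.033 (Adcy5) in GABAergic nuclei, -0.016 to 0.43 (Drd1) between the classes and -0.077 to 0.039 (Adcy5) in the interaction. In VGluT2 nuclei they ranged from -1.86 to 0.35 (Drd1), -0.26 to 0.42 (Drd2) and -0.060 to 0.22 (Gnal), in astrocytes from -0.29 to 0.54 (Gnal) and -0.42 to 0.27 (Adcy5), and in VLMCs from -0.21 to 0.41 (Gnal). Other sign changes of uncalled values were Gnal -0.0096, Adcy5 0.055 and Ppp1r1b -0.15 in glutamatergic nuclei and Adcy5 0.082 in VGluT1 nuclei, all without those 3 clusters. In VGluT1 nuclei the call of Drd1 was then lost (0.87, edgeR adjusted p = 0.087) and Rgs9 was called (0.66, adjusted p = 0.038), an alternative chosen after seeing the data. In GABAergic nuclei Drd1 was 0.052 with the split by marker UMIs and 0.054 with the second library alone, and Adcy5 was 0.0080 without doublet removal. Between the classes Drd2 was 0.34 without doublet removal. In the interaction Adcy5 was 0.026 with DESeq2, 0.024 with its size factors, 0.025 without doublet removal and 0.062 with the second library alone.

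With the replicate number as a block, 4 members were called in glutamatergic nuclei (3045 of all 18826 genes tested) and 0 in GABAergic nuclei (965 of 14499). In VGluT2 nuclei 0 members were called (290 of 13509 genes), where Drd2 was -0.22, and no call of a member changed. The deviations of same-numbered replicates correlated at 0.10, 0.01 and 0.07 in glutamatergic nuclei (3 of 6 replicates best with their own number) and 0.02, -0.09 and -0.01 in GABAergic nuclei (1 of 6). The values were higher in VLMCs (0.24, 0.11 and 0.09, 6 of 6), microglia (0.46, 0.09 and 0.09, 4 of 6) and astrocytes (0.33, 0.12 and 0.06, 3 of 6), but in no class were all 3 above 0.1, so the numbers were not taken as pairing. In the non-neuronal classes the alternatives called 0 to 585 of all genes in astrocytes, 164 to 661 in OPCs, 28 to 318 in MOLs, 0 to 17 in microglia and 0 to 52 in VLMCs. Depth limits Drd2, Drd3, Drd4 and Drd5 in every class, posterior VGluT2 nuclei included.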
